A study of Mus musculus with 8 samples.

Results

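The genes described here encode the enzymes that add acetyl groups to histones, the enzymes that remove them, proteins that bind acetylated histones, and 2 enzymes that supply acetyl-CoA. There were 31 such members among the 21887 protein-coding genes of the RefSeq table for the mouse genome build GRCm38. They were chosen by function, by a rule that uses no value measured here, although earlier results of these data were known when it was set: 4 class I histone deacetylases (Hdac1, Hdac2, Hdac3, Hdac8), 4 of class IIa (Hdac4, Hdac5, Hdac7, Hdac9), 2 of class IIb (Hdac6, Hdac10), the class IV enzyme Hdac11, 7 sirtuins (Sirt1 to Sirt7), the acetyltransferases Ep300 and Crebbp, 2 acetyltransferases of the GNAT family (Kat2a, Kat2b), 5 of the MYST family (Kat5, Kat6a, Kat6b, Kat7, Kat8), the bromodomain readers Brd2 and Brd3, and the acetyl-CoA synthesising enzymes Acly and Acss2.

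The acetyl marks that these proteins write and erase were themselves measured. H3K27ac and H3K9ac, acetylation of histone H3 at lysines 27 and 9, were profiled by CUT&Tag, in which an antibody tethers a transposase to chromatin carrying a mark, in crypts of the small intestine of male C57BL/6J mice aged 9 weeks. Mice of the Fed groups were not fasted and mice of the Fast groups were fasted for 24 h, and each feeding state was studied without tetracycline and after 21 days of tetracycline, an antibiotic. The crypt cells were released with EDTA and then dispersed with trypsin, and no genetic change is given for any group. Each mark had 4 groups, each group had 1 sample, and each sample had 2 deposited peak lists (list 1 and list 2), which gives 8 lists per mark and 16 in all. The labels do not say whether the 2 lists of a sample came from different mice, so each p-value here measures the spread between lists, which may be technical.

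On the main chromosomes, H3K27ac peaks numbered from 32392 to 68545 and H3K9ac peaks from 17249 to 99050. The read depth behind a list is unknown. Among the Fast lists, 3 of H3K9ac held 17.2%, 20.3% and 31.2% of peaks exactly 200 bp wide, and 1 of H3K27ac held 11.8%. All 12 epithelial marker genes had an H3K27ac peak within 1 kb of a gene end in all 8 lists, and none of 6 markers of other tissues did in any. Of 10 leukocyte markers, 2 to 5 were marked by H3K27ac in each Fed list and 5 to 6 in each Fast list. The leukocyte marker Ptprc had an H3K27ac peak at a gene end in 4 Fast lists and 0 Fed lists. For H3K9ac, 0 to 3 leukocyte markers were marked in each Fed list and 1 to 5 in each Fast list. Of 8 markers of stroma, vessel and muscle, 0 to 1 were marked by H3K27ac in each list of either feeding state, and the leukocyte marker Csf1r in none. In a mixed tissue, fewer cells of a type and less of a mark per cell cannot be told apart.

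Histone acetyltransferases transfer the acetyl group of acetyl-CoA to lysines of histone tails, and the resulting marks lie at active promoters and enhancers. The related enzymes p300 and CBP, products of Ep300 and Crebbp, write most H3K27ac, whereas the GNAT enzymes, products of Kat2a and Kat2b, write H3K9ac. Zinc-dependent histone deacetylases and the NAD-dependent sirtuins remove acetyl groups, and bromodomain proteins bind them. Acly makes acetyl-CoA from citrate and Acss2 makes it from acetate, a product of gut microbes. In the intestinal epithelium, Hdac1 and Hdac2 are known to be needed for normal renewal.

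The sequences just upstream of 7 members are shown because they run from promoters marked in every list to promoters with almost no mark. Each is the 250 bases before the transcription start listed in a RefSeq promoter table (GRCm38.p6), written 5′ to 3′ on the strand of the gene. Capitals are matches, on either strand, to 8 motifs searched, which are given with their counts after the sequences, 7 spelled out and the NRF1 motif by name. The Ep300 window is chr15:81585964-81586213 on the plus strand, and the Hdac2 window is chr10:36974294-36974543 on the plus strand. Both genes were marked in all 16 lists.
Ep300: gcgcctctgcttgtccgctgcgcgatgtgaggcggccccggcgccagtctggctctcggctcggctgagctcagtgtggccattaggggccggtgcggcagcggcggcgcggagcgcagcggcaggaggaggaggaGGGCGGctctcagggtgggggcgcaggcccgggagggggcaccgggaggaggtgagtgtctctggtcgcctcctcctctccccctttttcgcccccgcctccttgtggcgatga
Hdac2: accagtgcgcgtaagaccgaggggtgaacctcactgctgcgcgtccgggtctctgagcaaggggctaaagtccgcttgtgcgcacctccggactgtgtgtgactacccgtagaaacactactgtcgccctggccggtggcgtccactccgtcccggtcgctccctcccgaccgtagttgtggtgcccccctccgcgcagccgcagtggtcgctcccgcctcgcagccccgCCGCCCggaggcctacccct
The next pair are from Brd3, chr2:27475399-27475648 on the minus strand, and Hdac4, chr1:92180342-92180591 on the minus strand. Their listed starts lie inside the outer limits of the genes and carried H3K27ac peaks in all 8 lists where the gene ends had none.
Brd3: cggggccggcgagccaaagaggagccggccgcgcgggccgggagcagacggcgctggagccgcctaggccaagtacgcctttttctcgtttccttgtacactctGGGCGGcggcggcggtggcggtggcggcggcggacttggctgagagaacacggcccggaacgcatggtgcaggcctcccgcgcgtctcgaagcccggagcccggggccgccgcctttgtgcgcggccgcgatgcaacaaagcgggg
Hdac4: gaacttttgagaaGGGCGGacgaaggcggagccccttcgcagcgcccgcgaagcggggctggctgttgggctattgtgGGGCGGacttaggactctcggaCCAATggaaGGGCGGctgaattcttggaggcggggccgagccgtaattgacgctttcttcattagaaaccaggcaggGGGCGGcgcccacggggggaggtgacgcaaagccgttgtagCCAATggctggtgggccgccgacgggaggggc
Acss2, chr2:155517793-155518042 on the plus strand, was the one member whose surrounding H3K27ac peaks were higher in every Fast list than in any Fed list.
Acss2: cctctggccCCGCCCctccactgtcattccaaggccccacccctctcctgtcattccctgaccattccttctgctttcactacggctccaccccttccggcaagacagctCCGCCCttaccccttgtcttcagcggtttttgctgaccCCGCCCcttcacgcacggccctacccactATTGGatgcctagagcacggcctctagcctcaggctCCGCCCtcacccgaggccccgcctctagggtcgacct
Kat2a, chr11:100712468-100712717 on the minus strand, and Hdac9, chr12:34917096-34917345 on the minus strand, had no H3K27ac peak at a listed start in any list.
Kat2a: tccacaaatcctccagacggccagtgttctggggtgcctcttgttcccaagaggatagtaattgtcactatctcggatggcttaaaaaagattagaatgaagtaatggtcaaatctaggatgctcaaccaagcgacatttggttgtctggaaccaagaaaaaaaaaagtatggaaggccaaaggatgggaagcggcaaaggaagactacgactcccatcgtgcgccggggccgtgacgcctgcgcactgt
Hdac9: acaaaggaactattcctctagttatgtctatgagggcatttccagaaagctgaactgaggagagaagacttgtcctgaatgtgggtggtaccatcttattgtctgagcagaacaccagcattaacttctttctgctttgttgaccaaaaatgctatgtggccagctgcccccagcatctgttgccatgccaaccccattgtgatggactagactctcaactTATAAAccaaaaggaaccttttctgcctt

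These windows differed in their CG dinucleotides. The upstream sequences of Brd3, Hdac2 and Ep300 held 37, 27 and 25 of them, Hdac4 held 23, Acss2 13 and Kat2a 11, and Hdac9 held 0. Of the 31 members, 27 had an entry in the promoter table, with 39 listed starts (Hdac1, Hdac3, Hdac10 and Kat6a had none). Over windows of 300 bases (250 before and 50 after the start), the median ratio of observed to expected CG was 0.78 in the members' 39 windows and 0.38 in all 32851 windows of the table. The GC box, GGGCGG, occurred in 24 of the members' 39 windows (21 members), and in 35.7% of all windows. The CCAAT box was found in 15 of the 39 (14 members) and in 37.4% of all windows. The TATA box, searched as TATAAA, was found in 2, of Hdac8 and Hdac9, and in 13.6% of all windows. The E-box, CACGTG, occurred in 1 window each of 3 members, Hdac5, Kat5 and Sirt1 (7.15% of all windows). An ETS motif, CCGGAAGT, occurred in 5, Kat5, Kat7, Kat8, Sirt3 and Sirt6 (3.89%), and the palindromic NRF1 motif in 2, Brd2 and Sirt6 (0.971%). The motif TCACNCCAC was found for Kat5 alone (1.24% of all windows). The cAMP response element, TGACGTCA, was found for no member (1.79%). None of the motifs contains another, and a match describes the sequence only.

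Most members were acetylated at their own promoters or ends. The gene ends are the outermost annotated coordinates, and a gene counted as marked in a list if any peak came within 1 kb of one of them. For H3K27ac, 20 of 31 members were marked in all 8 lists, beside 33.6% of all genes. Another 7 were marked in some lists and 4 in none (39.4% of all genes): Hdac4, Hdac7, Hdac9 and Brd3. For H3K9ac, 12 members were marked in all 8 lists (21.1% of all genes), 18 in some (53.6%) and 1 in none (25.2%), Brd3. The same 12 were marked in all 16 lists, a state shared by 17.6% of all genes: Hdac2, Hdac3, Hdac5, Hdac10, Hdac11, Sirt4, Sirt7, Ep300, Crebbp, Kat2b, Kat7 and Brd2.

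**Figure D1:**
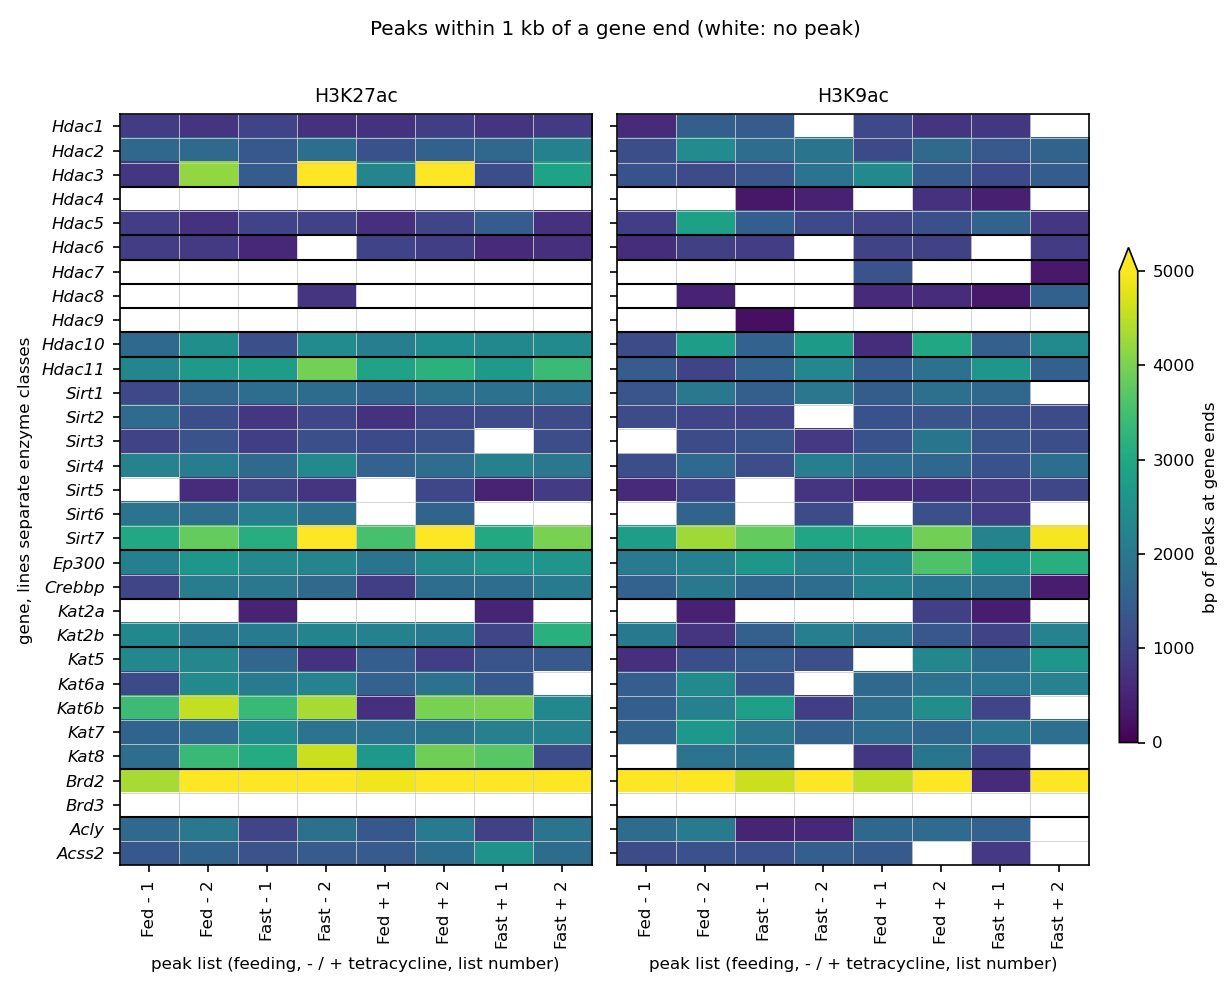
Base pairs of peaks within 1 kb of a gene end for each of the 31 genes (rows) in each of the 8 lists per mark (columns; minus and plus give tetracycline, the last digit the list number), with white where no peak lay and wider stretches in brighter colours. H3K27ac marked 20 genes in every list and H3K9ac 12, and Brd3 was white in all 16 lists.

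Among the class I deacetylases, Hdac2, which with Hdac1 acts in the Sin3, NuRD and CoREST complexes, and Hdac3, which acts with the NCoR co-repressors, were marked throughout, and Hdac1 was not. Hdac1 had an H3K27ac peak at a gene end in all 8 lists, covering 713 to 1012 bp. Its H3K9ac peaks at gene ends covered 599, 1522, 1100 and 757 bp in the 4 Fed lists and 1430, 0, 816 and 0 bp in the 4 Fast lists, each in the order list 1 and list 2 without tetracycline, then list 1 and list 2 with it. The 1430 bp included a separate peak of 543 bp at the opposite end of the gene, near Marcksl1. H3K9ac at Hdac1 was thus missing from both Fast lists numbered 2 and present in the other 6, with the Fed and Fast values overlapping. Hdac8, a deacetylase encoded on the X chromosome, had an H3K27ac peak in 1 list (749 bp, Fast 2 without tetracycline) and H3K9ac peaks in 5 lists, 3 Fed and 2 Fast, of 339 to 1551 bp.

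Of the class IIa deacetylases, which shuttle between nucleus and cytoplasm, 1 of 4, Hdac5, was marked in all 16 lists. Hdac4 had H3K9ac peaks at a gene end in 4 lists (1 Fed, 3 Fast), Hdac7 in 2 (1 Fed, 1 Fast) and Hdac9 in 1, a peak of 201 bp in Fast 1 without tetracycline. None of these 3 genes had an H3K27ac peak there. Of class IIb, the polyamine deacetylase Hdac10 was marked in all 16 lists, and the tubulin deacetylase Hdac6 in 7 of 8 H3K27ac lists (absent from Fast 2 without tetracycline) and 6 of 8 H3K9ac lists (absent from Fast 2 without and Fast 1 with tetracycline). The class IV gene Hdac11 was marked in all 16.

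Of the sirtuins, the mitochondrial Sirt4 and the nucleolar Sirt7 were marked in all 16 lists. Sirt1, the nuclear NAD-dependent deacetylase linked to nutrient state, carried H3K27ac throughout and lacked H3K9ac in 1 list, Fast 2 with tetracycline. The mainly cytoplasmic Sirt2 was absent from 1 H3K9ac list (Fast 2 without tetracycline), and the mitochondrial deacetylase Sirt3 from 1 list of each mark. Sirt5, a mitochondrial desuccinylase, had H3K27ac peaks at its promoter end of 0, 628, 0 and 1067 bp in the Fed lists and 967, 758, 503 and 862 bp in the Fast lists. The H3K27ac peak of Sirt5 was therefore found in all 4 Fast lists and in the 2 Fed lists numbered 2, with overlapping widths. Its H3K9ac peak was in 7 lists, absent from Fast 1 without tetracycline. Sirt6, a chromatin-bound deacetylase of H3K9ac, had H3K27ac peaks in 5 lists and H3K9ac peaks in 4. The H3K27ac widths of Sirt6 were 1895, 1783, 2133 and 1851 bp in the 4 lists without tetracycline and 0, 1605, 0 and 0 bp with it. That peak was present in every list without tetracycline and in 1 of 4 with it. Its H3K9ac peaks were in 2 lists of each feeding state and in 2 lists of each tetracycline state.

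Among the writers, Ep300 and Crebbp were marked in all 16 lists. At Ep300, the H3K27ac peak covered 1915 to 2635 bp (median 2357) and the H3K9ac peak 2032 to 3603 bp (median 2523). At Crebbp the H3K27ac peaks covered 932 to 2114 bp (median 1797) and the H3K9ac peaks 403 to 2201 bp (median 1831), the lowest value being in Fast 2 with tetracycline. That list lacked the H3K9ac region over the Crebbp start, chr16:4212725-4214982, which the other 7 had, and its 403 bp lay at the opposite end of the gene. The GNAT pair differed from each other. Kat2b was marked in all 16 lists, whereas Kat2a had H3K27ac in 2 lists, Fast 1 without and Fast 1 with tetracycline, of 484 and 526 bp, and H3K9ac in 3 lists (2 Fed, 1 Fast), of 391 to 947 bp.

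Of the MYST acetyltransferases, Kat7, the H3K14 acetyltransferase HBO1, was marked in all 16 lists. Kat5 (TIP60) lacked H3K9ac in 1 list, Fed 1 with tetracycline. Kat6a lacked H3K27ac in 1 list, Fast 2 with tetracycline, and H3K9ac in 1, Fast 2 without. Kat6b lacked H3K9ac in Fast 2 with tetracycline. Kat8, the H4K16 acetyltransferase MOF, had H3K27ac in all 8 lists, at 1182 to 4602 bp, and H3K9ac in 5. The H3K9ac widths of Kat8 were 0, 1905, 811 and 1947 bp in the Fed lists and 1866, 0, 1014 and 0 bp in the Fast lists, so both Fast lists numbered 2 lacked it, as did Fed 1 without tetracycline.

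Both acetyl-CoA genes had H3K27ac at the promoter in all 8 lists and gaps in H3K9ac. Acly covered 973 to 2060 bp of H3K27ac. Its H3K9ac peaks covered 1761, 2062, 1699 and 1747 bp in the Fed lists and 526, 553, 1581 and 0 bp in the Fast lists. The 526 and 553 bp, of the Fast lists without tetracycline, lay at the opposite end of the gene, chr11:100475716-100476521, and are not widths of a promoter peak. These values mix the ends of the gene, so the Fed and Fast lists cannot be compared on them. Because 1 Fast list held no peak, the gene did not enter the test of width. The merged H3K9ac region over the Acly start, chr11:100526677-100528738, was present in 4 Fed lists and 1 Fast list, while the H3K27ac region there, chr11:100526731-100528826, was in all 8. Acss2 covered 1283 to 2575 bp of H3K27ac, and its H3K9ac peak was absent from 2 lists, Fed 2 and Fast 2 with tetracycline.

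A peak within 1 kb of the ends of 2 genes counts for both, so several of these peaks cannot be assigned to one gene. The nearest end of another gene was 29 bp away for Sirt6 (Ankrd24), 31 bp for Hdac7 (Slc48a1), 39 bp for Hdac3 (Rell2), 55 bp for Kat5 (Rnaseh2c), 68 and 85 bp for Sirt3 (Ric8a and Psmd13, at either end), 95 bp for Hdac10 (Tubgcp6), 103 bp for Sirt7 (Mafg), 108 bp for Sirt2 (Nfkbib), 121 bp for Kat8 (Prss8), 123 bp for Hdac1 (Marcksl1), 438 bp for Acss2 (Gss) and 475 bp for Kat2a (Dhx58).

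The width of the marked stretch ranged widely among members. Brd2, a bromodomain reader, had the highest median percentile for both marks, with 4340 to 6485 bp of H3K27ac and a median percentile of 97.9 among the genes marked in the same list. Its H3K9ac stretches covered 4505 to 7741 bp in 7 lists and 600 bp in Fast 1 with tetracycline. Sirt7 lay at 3004 to 5335 bp of H3K27ac (median percentile 92.2) and 2241 to 4932 bp of H3K9ac (96.6). Ep300 lay at median percentiles of 78.5 for H3K27ac and 92.7 for H3K9ac. Hdac1 lay near the bottom for H3K27ac, at a median percentile of 12.1, and Hdac5 at 20.3. Hdac3 was uneven between lists, at 807, 4182, 2269 and 6705 bp of H3K27ac in the Fed lists and 1452, 6557, 1204 and 2891 bp in the Fast lists, with each list numbered 2 above the list numbered 1 of its group. These widths summed 1, 2, 2 and 2 peaks in the Fed lists and 1, 2, 1 and 1 in the Fast lists. An H3K27ac region at an end of Diaph1, 848 bp from Hdac3, was in all 8 lists. A peak there adds its whole width when it comes within 1 kb, so the unevenness is not of the Hdac3 promoter alone.

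**Figure D2:**
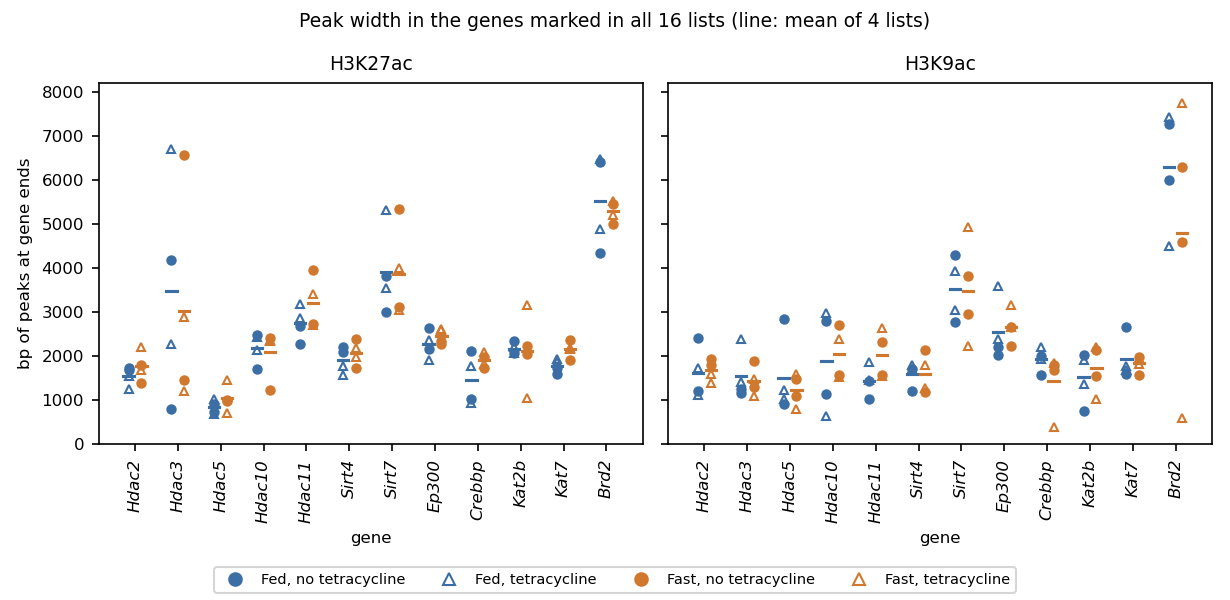
Base pairs of peaks at the gene ends (vertical axis) in each list for the 12 genes marked in all 16 lists, with Fed in blue, Fast in orange, filled circles for no tetracycline, open triangles for tetracycline and a line at the mean of the 4 lists of a feeding state. Brd2 had the highest means in both marks, with 1 H3K9ac list at 600 bp, and the Fed and Fast points overlapped for each of the 12 genes in both marks.

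The outer ends of a gene need not be the promoter in use. For 4 of the 27 members with a listed start, the nearest one lay more than 1 kb from both ends: Hdac4, Sirt4, Kat5 and Brd3 (14.8%, beside 9.76% of all genes with a listed start). Brd3, a reader of acetylated histones, had no peak at a gene end in any list. Its listed start, 32259 bp inside the outer end, was nevertheless marked in all 16 lists, with peaks covering 1567 to 3726 bp of H3K27ac and 965 to 2388 bp of H3K9ac. Hdac4 had a listed start 15361 bp inside the outer end, marked by H3K27ac in all 8 lists (1250 to 3376 bp) and by H3K9ac in 6 (1143 to 2256 bp), the exceptions being Fed 2 and Fast 2 with tetracycline. Of the 4 H3K9ac lists with a peak at an end of Hdac4, the 3 Fast lists had it at the other end of the gene. A start marked by H3K27ac in all 8 lists without any peak at a gene end was found in 1.06% of all genes with a listed start, and the same for H3K9ac in 0.412%.

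**Figure D3:**
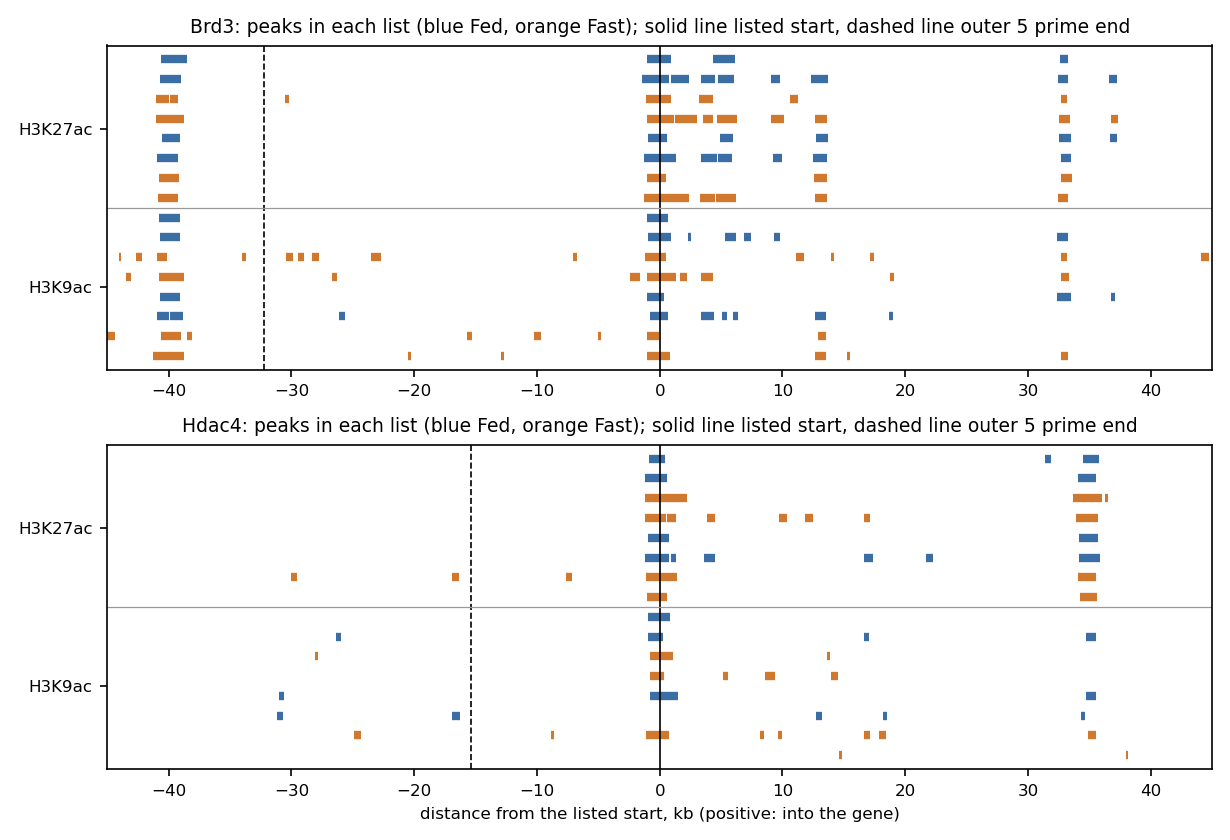
Peaks of each list (1 line per list, H3K27ac above H3K9ac, Fed blue, Fast orange) against the distance in kb from the listed start of Brd3 and Hdac4, positive into the gene. Peaks lie within 1 kb of the listed start (solid line) in all 16 lists for Brd3 and 14 for Hdac4. Near the outer 5′ end (dashed line, 32259 and 15361 bp upstream) no list has one for Brd3 and 1 H3K9ac list has one for Hdac4, 873 bp beyond it.

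Counted at listed starts, H3K27ac marked 18 of 27 members in all 8 lists (34.5% of all genes with a listed start) and 2, Hdac9 and Kat2a, in none (40.8%). H3K9ac marked 9 in all 8 lists (21.5%) and 0 in none (30.0%). Hdac7, which had no H3K27ac at its ends, had it at a listed start in 3 lists, Fed 2 and Fast 2 without and Fed 2 with tetracycline. Kat2a had H3K9ac at its start in 2 lists, both Fed lists numbered 2. In the window around Kat2a, the H3K27ac region present in all 8 lists lay 22595 bp away, at an end of Rab5c.

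The 2 marks were compared over the 16 lists of each member. H3K27ac was found at the ends in more lists than H3K9ac for 10 members, in fewer for 6 and in the same number for 15. Over all genes these shares were 26.2%, 27.6% and 46.2%. The 10 with more H3K27ac included Hdac1, Kat8, Acss2, Acly and Sirt1, and the 6 with more H3K9ac included the class IIa genes Hdac4, Hdac7 and Hdac9. In each list, 23 to 26 members were marked by H3K27ac (median 24.5) and 20 to 27 by H3K9ac (median 25), beside 42.9% to 50.7% and 41.1% to 53.2% of all genes.

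The design compares Fast with Fed crypts in both tetracycline states. At gene ends, no member passed in either direction for either mark, the call being a peak in all 4 lists of one feeding state and none of the other 4. Among all genes, the call was made for 0.0959% in the Fast and 0.0137% in the Fed direction for H3K27ac, and for 0.0777% and 0.0411% for H3K9ac. Of the leukocyte markers given above, 2 to 5 were marked by H3K27ac per Fed list and 5 to 6 per Fast list, and their part in these values was not tested. H3K27ac marked 24, 25, 23 and 25 members in the Fed lists and 26, 25, 24 and 23 in the Fast lists, and these ranges overlap. H3K9ac marked 22, 27, 25 and 27 members in the Fed lists and 25, 21, 27 and 20 in the Fast lists. The 2 Fast lists numbered 2, at 21 and 20 members, were below every Fed list. The mean difference, Fast minus Fed, was 0.25 members for H3K27ac and -2.0 for H3K9ac. The latter was 2.5 without the lists numbered 2 and -6.5 without the lists numbered 1, so its direction depended on the list number.

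Fasted crypts had more peaks around most members, as they did around most genes. Peaks were counted in the gene body plus 50 kb on either side, and ratios are mean differences of log2(peaks + 1), Fast minus Fed, averaged over the tetracycline states, a scale that understates changes of low counts. For H3K27ac, 23 of 31 members had a ratio above 0, beside 74.2% of all genes, and 6 below. The median was 0.25, beside a median of 0.24 over all genes. For H3K9ac, 29 members were above 0, beside 89.9% of all genes, and 2 below, with a median of 0.47, beside 0.54 over all genes. Taken relative to the total number of peaks in each list, 11 members for H3K27ac and 4 for H3K9ac lay above 0, with medians of -0.14 and -0.52. Adding 1 to each count understates changes of low counts but not of the totals. As Fast totals were higher on average, this lowers the relative values. The cause of the direction was not tested. The members' medians lay close to those of all genes on both scales (-0.15 and -0.45 over all genes relative to the totals).

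Acss2, which turns acetate into acetyl-CoA, was the 1 member called for H3K27ac. Its window held 5, 9, 8 and 8 peaks in the Fed lists and 19, 10, 13 and 10 in the Fast lists. Every Fast list was above every Fed list, also within each tetracycline state. The log2 ratio was 0.70 (SD of the log2 values 0.33 for Fed and 0.41 for Fast, n = 4 lists each, exact permutation p = 0.056, two-sided, the smallest of 36 arrangements, adjusted p = 1.0 over all genes). The call was made for 1.84% of all genes in the Fast and 0.0685% in the Fed direction, so 1 of 31 members is near that share. Relative to the list totals the ratio was 0.31, and the call was lost there, when every list was cut to an equal number of its best peaks, among peaks at least 500 bp wide, in the upper 0.5 of each list by score, and with 25 or 100 kb on either side.

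Most regions around Acss2 were not shared by all lists. Of its 21 merged H3K27ac regions, 3 were found in every list and 10 in 1 list alone. A pair of regions was found in all 4 Fast lists and 1 Fed list, chr2:155537960-155539079 within the gene and chr2:155569027-155570428, 6284 bp beyond its end. These were singled out after their values were seen. The same pattern was found around members that were not called, among them Hdac1, Hdac4, Kat6a and Kat8. The promoter region, chr2:155517239-155519289, a region in the gene body, chr2:155551962-155553914, and a region at an end of Gss, chr2:155589046-155593462, were in all 8.

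**Figure D4:**
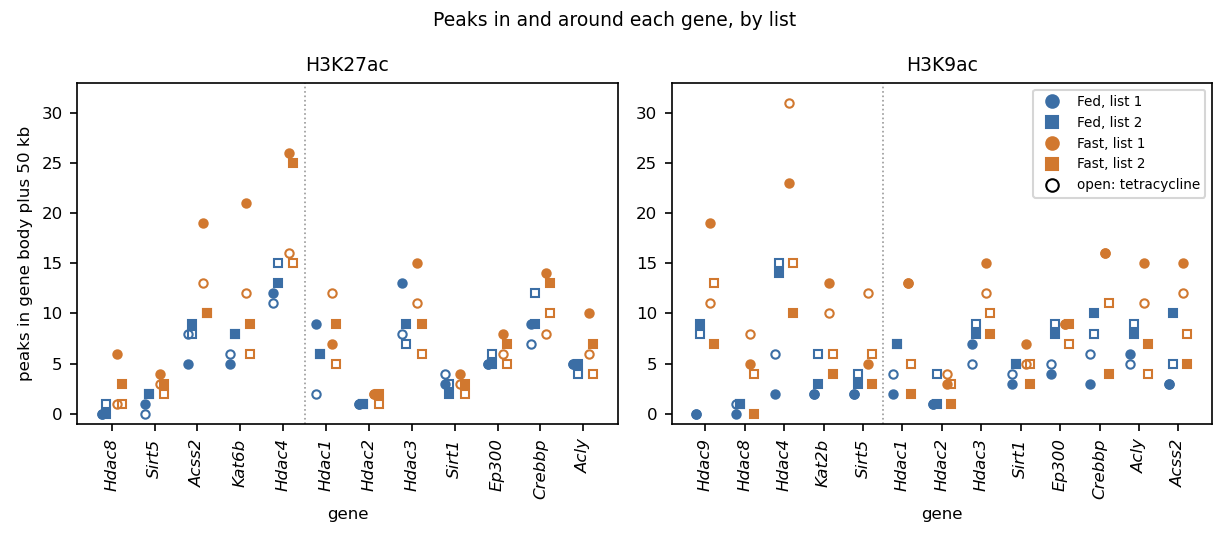
Number of peaks in the gene body plus 50 kb (vertical axis) in each list, for the 5 genes of largest fasting ratio per mark (left of the dotted line) and for genes shown whatever their values; circles are lists 1, squares lists 2, open symbols tetracycline. Acss2 in H3K27ac had all Fast points (10 to 19) above all Fed points (5 to 9), and the highest H3K9ac points, up to 31 peaks at Hdac4, are Fast lists numbered 1 (orange circles).

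The other members of large ratio did not separate by feeding. For H3K27ac, Hdac8 had 0, 0, 0 and 1 peaks in the Fed lists and 6, 3, 1 and 1 in the Fast lists (log2 ratio 1.45, exact permutation p = 0.17). Sirt5 had 1, 2, 0 and 2 Fed peaks and 4, 3, 3 and 2 Fast peaks (0.93, exact permutation p = 0.11). The Fed and Fast counts of both genes met at 1 value. Kat6b, an acetyltransferase of the MYST family, had 5, 8, 6 and 8 Fed peaks and 21, 9, 12 and 6 Fast peaks (0.64, exact permutation p = 0.22). Hdac4 had 12, 13, 11 and 15 Fed peaks and 26, 25, 16 and 15 Fast peaks (0.61, exact permutation p = 0.11). All 4 had an adjusted p of 1.0 over all genes in these permutation tests. Leaving out Fast 2 with tetracycline, a list of 36737 peaks, raised the count of called members from 1 to 9: Hdac2, Hdac4, Hdac5, Sirt4, Sirt5, Kat6a, Kat6b, Acly and Acss2 (11.6% of all genes). Without Fed 2 with tetracycline, 3 were called, Hdac4, Hdac8 and Acss2 (3.74% of all genes).

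For H3K9ac no member was called, beside 3.05% of all genes in the Fast and 0.0% in the Fed direction. Hdac9, a class IIa deacetylase, had 0, 9, 0 and 8 peaks in the Fed lists and 19, 7, 11 and 13 in the Fast lists (log2 ratio 2.06, exact permutation p = 0.11, adjusted p = 0.70). Its gene is 869.5 kb long, and 65 of the 66 merged H3K9ac regions in its window were seen in a single list. Hdac8 had 0, 1, 1 and 1 Fed and 5, 0, 8 and 4 Fast H3K9ac peaks (1.27, exact permutation p = 0.17). Hdac4 had 2, 14, 6 and 15 Fed and 23, 10, 31 and 15 Fast H3K9ac peaks (1.19, exact permutation p = 0.22). In each of these 3 genes the Fed and Fast values overlapped. Kat2b had 2, 3, 2 and 6 Fed and 13, 4, 10 and 6 Fast H3K9ac peaks (1.10, exact permutation p = 0.11). Sirt5 had 2, 3, 2 and 4 Fed and 5, 3, 12 and 6 Fast H3K9ac peaks (0.90, exact permutation p = 0.11). Without the single list Fast 2 without tetracycline, 7 members were called higher in Fast for H3K9ac: Hdac3, Hdac6, Hdac8, Hdac9, Sirt5, Crebbp and Kat6b (15.4% of all genes).

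The writers and erasers best known for these marks are given whatever their ratios. Ep300 had 5, 5, 5 and 6 Fed and 8, 7, 6 and 5 Fast H3K27ac peaks, and Crebbp 9, 9, 7 and 12 Fed and 14, 13, 8 and 10 Fast. Hdac1 had 9, 6, 2 and 6 Fed and 7, 9, 12 and 5 Fast H3K27ac peaks, and Hdac2, which stands alone in its window, 1 in each Fed list and 2, 2, 2 and 1 in the Fast lists. In all 4 genes the Fed and Fast counts overlapped. Hdac3 had 13, 9, 8 and 7 Fed and 15, 9, 11 and 6 Fast, Sirt1 3, 2, 4 and 3 Fed and 4, 3, 3 and 2 Fast, and Acly 5, 5, 5 and 4 Fed and 10, 7, 6 and 4 Fast H3K27ac peaks, which also overlapped.

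The direction for H3K9ac differed between list numbers. Between lists numbered 1, all 31 members had more H3K9ac peaks in Fast than in Fed, as did 96.2% of all genes (median log2 ratio 1.10, beside 1.34 over all genes). Between lists numbered 2, 8 members had more and 23 fewer (median -0.26, beside -0.23 over all genes). For H3K27ac, 30 members were higher in Fast between lists 1 and 0 lower, beside 83.6% and 5.15% of all genes (median 0.50, as over all genes). Between lists 2, 12 were higher and 16 lower, beside 26.7% and 46.4% of all genes (median -0.021, beside 0 over all genes). All 31 members were higher in Fast for H3K9ac between lists 1, so those higher in both sets were the 8 higher between lists 2. These were Hdac3, Hdac6, Hdac8, Hdac9, Sirt5, Sirt6, Kat2b and Brd2. The share of all genes higher in both sets was not counted.

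**Figure D5:**
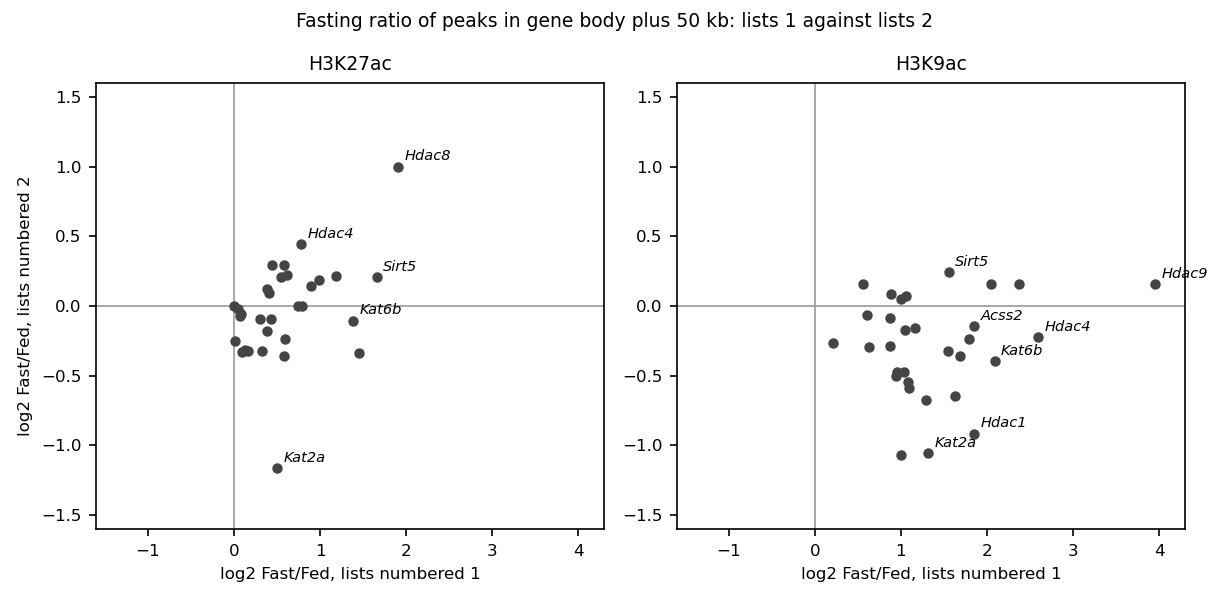
Fasting log2 ratio of peaks in the gene body plus 50 kb for each of the 31 genes, from lists numbered 1 (horizontal axis) and from lists numbered 2 (vertical axis). No point lies left of 0 for either mark (1 H3K27ac gene is at 0), and for H3K9ac 23 of 31 (62.8% of all genes) lie below the horizontal line, where lists 2 had fewer peaks in Fast.

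Peaks that overlapped between lists were joined into regions separately for each mark, and the members' windows held 502 H3K27ac and 1074 H3K9ac regions. Of these, 19.9% and 3.26% were found in every list (14.6% and 1.52% over the genome). Regions found in 1 list made up 51.4% and 76.4% (53.1% and 84.4% over the genome). Regions separating the feeding states completely numbered 2 for H3K27ac and 0 for H3K9ac. The first, chr5:115430390-115432067, was found in the 4 Fast lists, 45939 bp from Sirt4 and at an end of the gene A930005G22Rik. The H3K9ac region at the same place, chr5:115430356-115433310, was in 4 Fast lists and 1 Fed list. The second, chr10:81600582-81601569, was found in the 4 Fed lists, 20218 bp from Sirt6 and at an end of Tle6, a Groucho family gene. Over the genome, 0.4% of merged H3K27ac regions were Fast-only and 0.0837% Fed-only by the same count (0.0189% and 0.0145% for H3K9ac). The distance alone does not tie either region to Sirt4 or Sirt6.

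In the width of the marked stretch at gene ends, taken over members marked in all 8 lists, no member separated by feeding. By the same count 5.38% of such genes were wider and 0.285% narrower in every Fast list for H3K27ac, and 2.59% and 1.02% for H3K9ac. Kat7 had 1605, 1743, 1866 and 1933 bp of H3K27ac in the Fed lists and 2370, 1912, 2168 and 2194 bp in the Fast lists (log2 ratio 0.27, exact permutation p = 0.056, adjusted p = 0.60). Sirt1 had 1099, 1652, 1605 and 1838 bp in the Fed lists and 1797, 1761, 1869 and 1864 bp in the Fast lists (0.26, exact permutation p = 0.056, adjusted p = 0.60). In both genes, Fast was wider than Fed within each tetracycline state, while 1 Fed list with tetracycline overlapped the Fast lists without it. That p, the smallest possible in the permutation test, was reached by 2 of the 20 members and by 683 of 7362 genes, a similar share. Over the 20 members the median log2 ratio was 0.056 (0.13 over all 7362 genes marked in all 8 lists), and over the 12 members for H3K9ac it was -0.037 (0.039 over 4626 genes).

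Tetracycline was examined in the same way. No member was marked in all 4 lists of one tetracycline state and none of the other, beside 0.00457% of all genes marked with tetracycline only and 0.0959% without only for H3K27ac, and 0.0457% and 0.0411% for H3K9ac. No member separated by the peaks in its window (0.0228% of all genes higher and 0.873% lower for H3K27ac, 0.0914% and 0.0137% for H3K9ac). The median log2 ratio of the members, with over without tetracycline, was -0.27 for H3K27ac and 0.26 for H3K9ac, beside -0.15 and 0.15 over all genes. Sirt6, with its H3K27ac peak in 4 lists without and 1 with tetracycline, was called when that 1 list, Fed 2 with tetracycline, was left out (0.233% of all genes called). Hdac8 was called higher with tetracycline for H3K9ac without Fed 2 without tetracycline (0.279%). The H3K9ac stretch of Ep300 covered 2032, 2204, 2653 and 2227 bp without tetracycline (Fed 1, Fed 2, Fast 1, Fast 2) and 2392, 3603, 2657 and 3154 bp with it (log2 ratio 0.36, exact permutation p = 0.056, adjusted p = 1.0). No member's width was higher or lower in every list with tetracycline (0.34% and 1.14% of genes for H3K27ac, 0.886% and 0.692% for H3K9ac). The Ep300 values overlapped between tetracycline states and were higher with tetracycline within each feeding state, in Fast by as little as 2657 against 2653 bp. That p, the smallest possible in the permutation test, was reached by 1 of 12 members and by 150 of 4626 genes.

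Other genes of the acetylation system were counted in the same way. Of 114 partners, further readers and metabolic genes in 4 lists, 79 were marked by H3K27ac at a gene end in all 8 lists and 10 in none, and 47 and 5 by H3K9ac. The shares of all genes were 33.6% and 39.4% for H3K27ac, and 21.1% and 25.2% for H3K9ac. Of the 10, Jade1, Zmynd8, Phip and Nmnat3 had H3K27ac at a listed start in all 8 lists, and Taf1 in 7. Of the 5, Taf1, Jade1 and Nmnat3 had H3K9ac at a listed start in 6, 7 and 6 lists. H3K27ac and H3K9ac marked 25 and 17 of 33 subunits of deacetylase complexes in all 8 lists. The counts were 26 and 15 of 37 partners of acetyltransferases and further acetyltransferases, 15 and 9 of 26 further acetyl-lysine readers, and 13 and 6 of 18 acetyl-CoA and NAD genes. Of the 114, 1 gene was called by fasting at its ends, Chd3, a remodelling subunit of the NuRD deacetylase complex, with H3K9ac in 4 Fed lists and 0 Fast lists (0.0411% of all genes). Its H3K27ac peak was in 3 Fed lists and 1 Fast list.

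Named here after their values were seen, Kansl1, a subunit of the complex of Kat8, and Acaca, which converts acetyl-CoA to malonyl-CoA, had more H3K27ac peaks in their windows in every Fast list than in any Fed list (2 of 114, beside 1.84% of all genes). Ing3, a subunit of the complex of Kat5, and Yeats2, a reader of histone acylation, did so for H3K9ac (2 of 114, beside 3.05%). Neither count is above the share of all genes. None was lower in every Fast list. Of the genes most uneven between feeding states, Atad2, a bromodomain ATPase, had H3K27ac at its ends in 3 Fed lists and 0 Fast lists, and Hat1, which acetylates new histone H4, in 2 Fed lists and 4 Fast lists. Yeats2 likewise had 2 and 4, and Meaf6, a subunit of MYST complexes, 4 and 2. For H3K9ac, Arid4a, of the Sin3 complex, and Msl3, a partner of Kat8, each had 4 Fed lists and 1 Fast list, and Crat, carnitine acetyltransferase, 4 and 2. The listed start of Msl3 carried H3K9ac in all 8 lists, so its difference concerned the outer ends alone. Arid4a and Crat had no listed start. Hat1 had 2 Fed and 4 Fast lists for H3K9ac, a difference as large as that of Crat, as did Pdhb (4 and 2), Ing4 (2 and 0) and Sgf29 (0 and 2).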

How the data were processed

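CUT&Tag peak lists for H3K27ac and H3K9ac were analysed, 16 in all, 2 for each of 8 samples. Each list gives peak positions and a score per peak, the authors' own value, as deposited. It was used only to rank peaks within a list. Per the submitters' processing notes, FastQC, Bowtie, SAMtools and the build mm10 (GRCm38) were used, and the peak names carry the name MACS. The names of the deposited lists describe the data as downsampled, to a depth not given in the sources used here. The MACS version, the calling threshold and the use of the IgG libraries are not given in the sources used here. Read totals were not used here, so the depth is unknown and a missing peak may reflect depth.

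Gene coordinates came from a RefSeq table (GRCm38), for protein-coding genes on chromosomes 1 to 19, X and Y. Peaks within 1 kb of a gene end, base pairs of peaks there, and peaks in the gene body plus 50 kb were counted per list. Overlapping peaks of a mark were merged into regions. A difference was called when all 4 lists of one state lay above all 4 of the other. Ratios are differences of mean log2(peaks + 1), or of log2 width for genes marked in all 8 lists. The exact permutation test, two-sided, exchanged lists within each tetracycline (or feeding) state, with 36 arrangements and a smallest p of 0.056, so it cannot pass 0.05. Benjamini-Hochberg adjustment ran over all genes tested. The members and gene lists were chosen with earlier results of these data known. Values per list are given for members marked in some but not all lists of a mark (by their gaps where few), for the 5 of largest absolute fasting ratio per mark, and for Hdac1, Hdac2, Hdac3, Sirt1, Ep300, Crebbp, Acly and Acss2. Of the other acetylation genes, up to 5 per mark with the largest difference in Fast and Fed lists marked are named. The scripts, tested on simulated data, ran in Python 3.11.15 with scipy 1.17.1 for tests, numpy 2.4.6, matplotlib 3.10.9 for plots and pandas 2.3.3.

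Alternatives were keeping the better-scoring 0.5 of the peaks in a list, cutting lists to an equal number of best peaks, peaks at least 500 bp wide, at least 0.5 of a peak inside the window, other distances (2.5, 25 and 100 kb), scaling to the list total, pairing by list number, and leaving out each list number. Leaving out each single list was chosen after seeing the data.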

Additional observations from a re-analysis of the deposited data

Results flagged for a closer look

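In 2 of 156 member values compared, every Fast list lay on one side of the Fed lists without tetracycline and on the other side with it. The difference between the tetracycline states was not tested. Around Sirt6, H3K27ac peaks in the gene body plus 50 kb numbered 6 and 6 in the Fed lists and 9 and 9 in the Fast lists without tetracycline, and 4 and 8 against 3 and 3 with it. The mean Fast minus Fed difference was 3 without and -3 with tetracycline, a difference of -6 peaks. Such opposite directions occurred in 0.553% of all genes. At the ends of Sirt2, H3K27ac covered 1741 and 1201 bp in the Fed lists and 782 and 1072 bp in the Fast lists without tetracycline, and 739 and 1076 bp against 1141 and 1147 bp with it. The 1741 bp included a separate peak of 517 bp at the opposite end of the gene, near Rinl. That peak was found in this list alone and is part of the means below. The mean differences were -544 and 236.5 bp, which differ by 780.5 bp. That pattern occurred in 2.5% of genes marked in all 8 lists.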

How the results depend on the processing

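Depth is unknown, and the permutation test, which exchanged lists within a state of the other factor (36 arrangements), could not pass 0.05. Shares in parentheses are of all genes tested, called under the same setting. Of 302 alternative values of the summary counts, 41 moved with lists left out and 29 with all lists kept. In the upper 0.5 of each list by score, 10 members (H3K27ac) and 7 (H3K9ac) were marked in all lists, with 52 and 24 of the 114 other acetylation genes; 0 (1.67%) and 1 (Hdac3, 2.27%) members were called by fasting in the 50 kb windows, and 1 (Hdac11, 2.56%) by H3K9ac width. With lists cut to equal numbers of best peaks, H3K9ac gave 6 members and 18 other genes marked throughout, a mean difference of -7.5 members, 1 call each at gene ends (Kat6b lower, 0.567%), in the windows (Hdac7 lower, 3.36%) and in width (Hdac11, 3.49%), and 5 members above 0; H3K27ac gave 10 above 0. Peaks at least 500 bp wide left 0 H3K27ac window calls (1.46%) and 14 H3K9ac members above 0. With at least 0.5 of a peak inside, the H3K27ac mean difference was -1.25 members and H3K9ac width gave 1 call (3.04%), as it did at 2.5 kb (3.73%). At 100 kb there were 0 H3K27ac calls (2.33%). Relative to list totals, 2 H3K27ac (Sirt5 higher, Kat2a lower, 6.87%) and 4 H3K9ac members (lower, 8.44%) were called, and 11 and 4 lay above 0.

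Ratios that reversed were Hdac4 (-0.31) and Kat2b (-0.25) with equal peak numbers, Hdac8 (-0.10) among peaks at least 500 bp wide, Sirt5 (-0.091) relative to list totals and Hdac4 (-0.22 without lists 1, up to 2.60 without lists 2), all for H3K9ac, and Kat6b for H3K27ac (-0.11 without lists 1, up to 1.38 without lists 2). The cause was not tested.

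List numbers were not taken to pair the samples, since not every correlation of deviations was over 0.1 (0.0063 to 0.225 for H3K27ac, all above 0, and -0.129 to 0.181 for H3K9ac). Whether they share a source is not known. With list number as a block, H3K27ac gave 2 fasting window calls (Kat7, Acss2, 5.55%), 3 width calls (Sirt1, Kat7, Acly, 22.6%) and 4 tetracycline window calls (Hdac3, Hdac10, Kat2a, Brd2, 7.13%), and H3K9ac 4 tetracycline window calls (Hdac4, Hdac5, Hdac11, Sirt2, 6.57%).

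With lists left out, and shares given at the highest count, H3K27ac ranged from -1.0 to 1.5 in the mean difference, 0 to 2 fasting (2.54%) and 0 to 1 tetracycline calls (1.62%) at gene ends, 1 to 16 fasting window calls (47.6%), 12 to 30 members above 0, 0 to 10 width calls (45.8%) and 0 to 8 tetracycline window calls (17.5%). H3K9ac ranged from -6.5 to 2.5, 0 to 3 (3.57%), 0 to 1 (2.47%), 0 to 27 (83.2%), 8 to 31, 0 to 9 (38.0%) and 0 to 11 (19.04%) in the same order, and from 12 to 19 members marked in all lists.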
